A study of Mus musculus with 12 samples.

Results

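The genes described here are 45 members of TGF-β, activin and BMP signalling, of 17305 genes named on the array, read in pancreatic islets of 4 mouse genotypes. They are a list of gene symbols that covers ligands, secreted antagonists, receptors, SMADs, nuclear co-repressors, ubiquitin ligases and the Id target genes. Each gene was read by its brightest probe, and all 45 had at least 1 probe. Total RNA from islets was measured on 12 one-colour Agilent arrays, 3 for each genotype, which are called WT (wild type), ob/ob, PPARγ2KO and POKO. PPARγ2KO mice lack the γ2 isoform of the nuclear receptor PPARγ. The ob/ob mice lack leptin and are obese, and POKO mice carry both defects. All groups were chow-fed females on a mixed C57BL/6 x Sv129 background, aged 4 weeks by the labels and 5 weeks by the study's text. Each array held RNA pooled from 3 to 4 mice, from islets picked by hand after collagenase digestion and kept in culture overnight. The study asked which islet genes accompany the early response of β-cells to insulin resistance, with and without PPARγ2.

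TGF-β family ligands are secreted dimers that bring together a type II and a type I receptor kinase. TGF-β and activin receptors phosphorylate SMAD2 and SMAD3, BMP receptors phosphorylate SMAD1, SMAD5 and SMAD9, and both sets enter the nucleus with SMAD4. SMAD6 and SMAD7, secreted binding proteins, nuclear co-repressors and SMURF ubiquitin ligases restrain the signal. In pancreas, activins and TGF-β are known for roles in endocrine development and β-cell function, and TGF-β for activating stellate cells, the fibroblast-like cells that make matrix.

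The labels were checked against the targeted genes first. Pparg, which encodes PPARγ, lay at a log2 signal of 6.41 to 7.44 on the 6 arrays of PPARγ2KO and POKO islets and at 8.54 to 9.77 on the 6 arrays of WT and ob/ob islets, with no overlap. The sources used here do not state whether its probe lies in the deleted part. Lep, the leptin gene, was well above background on no array, so it checks no ob/ob label. The mean log2 signal over 7 β-cell markers was 11.15 to 12.34 over the 12 arrays, and that over 7 acinar enzyme genes was 17.83 to 18.03, so every array also held exocrine RNA. The median processed signal was 20.9 to 30.4 on the 6 lean arrays and 30.7 to 40.6 on the 6 obese arrays. Each of 3 slides held 1 array of every genotype at a position fixed by genotype, so position on the slide and genotype cannot be told apart.

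Of the 45 members, 9 changed in ob/ob vs. WT islets, in the sense used throughout of a limma p-value of at most 0.05 after Benjamini-Hochberg adjustment over all 41174 probes. Inhbb, the activin and inhibin βB subunit, and Grem1, the BMP antagonist gremlin, were higher in ob/ob islets. Bmp7, the receptors Tgfbr1 and Bmpr1b, the SMADs Smad2 and Smad3, the co-repressor Tgif1 and the ubiquitin ligase Smurf1 were lower. The 7 lower members thus spanned the ligand, receptor, signal transducer and inhibitor levels of the pathway. Read across all named genes at their brightest probe, 13.6% were called in the same comparison (6.48% higher and 7.13% lower), against 20% of the members, and over all probes 11.1% were called. In obese (ob/ob and POKO) vs. lean (WT and PPARγ2KO) islets 6 members were called, Inhbb, Bmp6 and Skil higher and Bmp7, Tgfbr1 and Bmpr1b lower, or 13.3% of members. Of named genes 11% were called there (5.64% higher and 5.37% lower), and of all probes 9.04%. With these 2 comparisons sharing arrays, 4 members were called in both and 11 in either.

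No member was called in the other 7 comparisons, in which the same test called 0.214% of named genes in POKO vs. WT, 0.00578% in ob/ob vs. PPARγ2KO and 0% in the others. Limma's unadjusted p was below 0.05 for 7 members in POKO vs. ob/ob (11.8% of named genes), for 6 in POKO vs. WT (17.2%), for 4 in PPARγ2KO vs. WT (8.83%), for 4 in POKO vs. PPARγ2KO (12.9%), for 15 in ob/ob vs. PPARγ2KO (25.1%), for 1 in PPARγ2-null vs. intact islets (4.09%) and for 9 in the interaction of the 2 defects (16.1%). In ob/ob vs. WT that count was 20 members (37% of named genes), 8 with a positive and 12 with a negative difference, and in obese vs. lean it was 16 (33.7%). The median log2 fold change of the 45 members in ob/ob vs. WT was -0.09, and it was -0.27 over the 40 members left when those not well above background enter at their bounds or drop out. The median over all probes, with dim ones kept as fitted, was -0.08, so it can be set beside the -0.09 but not the -0.27. The ob/ob and WT arrays did not overlap for 16 of the 45 members, and for 39.1% of named genes.

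The number of calls in ob/ob vs. WT changed when single arrays were left out, POKO arrays included, which share the fit but do not enter the difference. None was left in the fits without WT array 2, ob/ob array 2 or ob/ob array 3. The count was 2 without WT array 1, 3 without POKO array 2 or 3, 4 without POKO array 1, 8 without any 1 PPARγ2KO array or ob/ob array 1, and 11 without WT array 3. Over these 12 fits each of the 9 members kept its direction. The call held in 2 of the 12 fits for Grem1, 3 for Smad2, 4 for Bmpr1b and 5 for Tgfbr1 and Smurf1. It held in 6 for Bmp7, 7 for Smad3, 8 for Tgif1 and 9 for Inhbb. The log2 difference ran from 1.60 to 1.99 for Inhbb, from -0.87 to -0.73 for Bmp7 and from -1.14 to -0.89 for Tgif1. It ran from -0.69 to -0.45 for Tgfbr1. For Bmpr1b the fitted values ran from -2.18 to -1.37, a size that is uncertain because this gene was near background. In obese vs. lean the count was 1 without WT array 2, PPARγ2KO array 1, ob/ob array 2, POKO array 1 or POKO array 2, 2 without ob/ob array 3 or POKO array 3, 3 without WT array 1, and 12 without WT array 3.

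**Figure D1:**
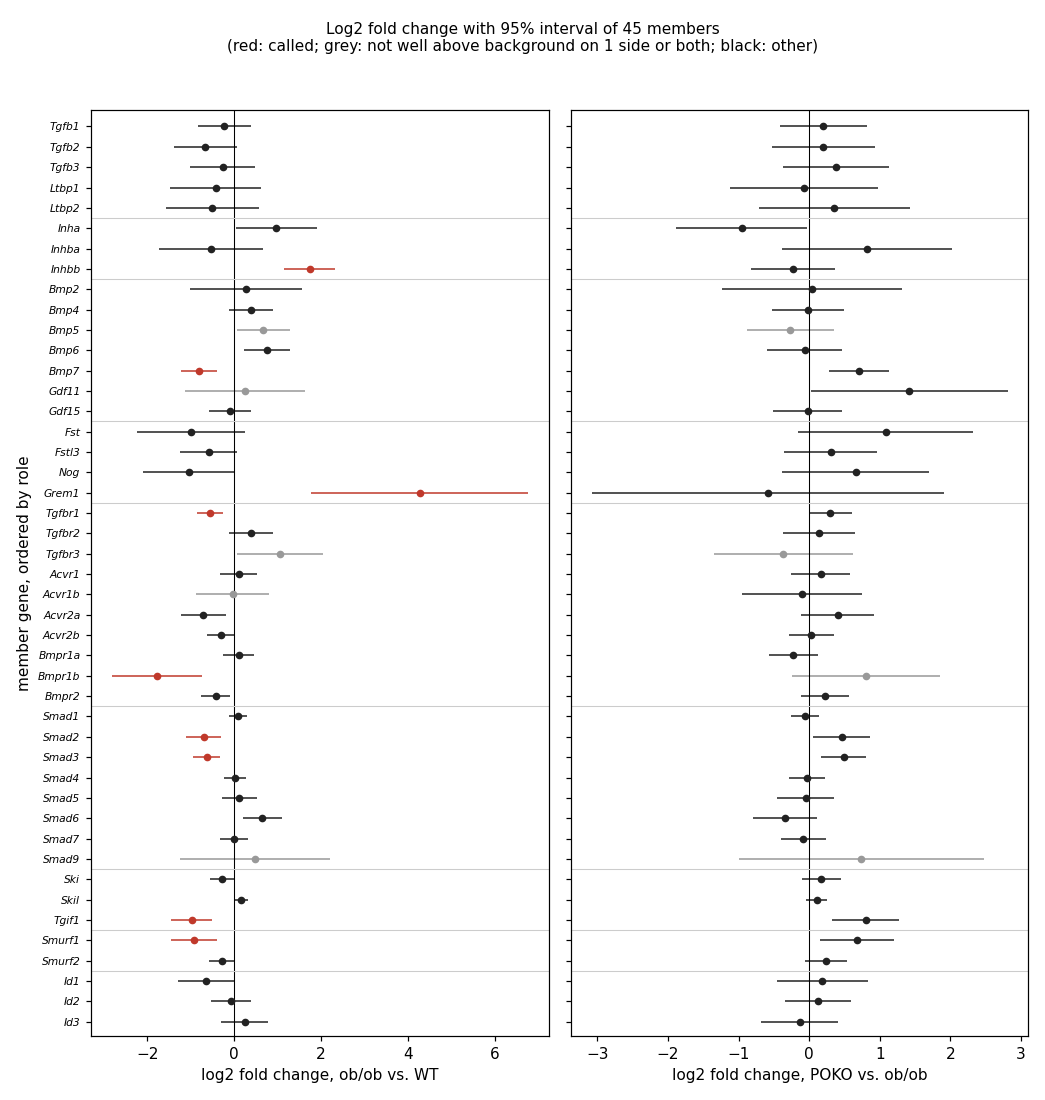
Log2 fold change of the 45 members in ob/ob vs. WT (left) and POKO vs. ob/ob (right) islets, on the x axis, with 1 row per gene ordered by role. Points are limma estimates over 3 arrays a group and lines are 95% intervals; red marks the 9 called members (Grem1 gives a bound only and Bmpr1b was near background), grey marks members not well above background on a side, and no point is red at the right.

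Start-site sequence is shown for Inhbb, the member with the largest rise in ob/ob vs. WT among those called and measured in both groups, which leaves out Grem1, known only by a bound, and for 4 members that were lower together in ob/ob islets at different steps of the pathway: the receptor Tgfbr1, the transducer Smad3, the co-repressor Tgif1 and the ligase Smurf1. The sequences are from RefSeq on GRCm38.p6 and cover 250 bases before to 50 after the start, at chr1:119422199-119422498 on the minus strand for Inhbb, chr4:47352972-47353271 on the plus strand for Tgfbr1, chr9:63757945-63758244 on the minus strand for Smad3, chr17:70853483-70853782 on the minus strand for Tgif1 and chr5:144965781-144966080 on the minus strand for Smurf1. Capitals mark CAGAC or its reverse complement GTCTG, the SMAD-binding letters searched on both strands. For Tgfbr1 and Tgif1, which have several starts, the first listed is shown.
Inhbb: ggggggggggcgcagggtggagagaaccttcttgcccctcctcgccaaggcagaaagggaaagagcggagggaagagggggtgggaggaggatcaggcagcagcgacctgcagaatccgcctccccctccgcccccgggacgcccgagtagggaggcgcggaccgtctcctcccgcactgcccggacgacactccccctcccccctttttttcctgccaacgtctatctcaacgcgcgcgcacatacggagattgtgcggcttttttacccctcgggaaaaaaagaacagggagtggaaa
Tgfbr1: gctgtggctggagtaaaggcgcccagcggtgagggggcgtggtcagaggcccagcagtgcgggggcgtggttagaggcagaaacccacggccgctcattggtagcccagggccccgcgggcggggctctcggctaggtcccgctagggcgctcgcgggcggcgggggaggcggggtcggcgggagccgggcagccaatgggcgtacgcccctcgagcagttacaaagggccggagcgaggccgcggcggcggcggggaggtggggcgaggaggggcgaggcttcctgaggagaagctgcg
Smad3: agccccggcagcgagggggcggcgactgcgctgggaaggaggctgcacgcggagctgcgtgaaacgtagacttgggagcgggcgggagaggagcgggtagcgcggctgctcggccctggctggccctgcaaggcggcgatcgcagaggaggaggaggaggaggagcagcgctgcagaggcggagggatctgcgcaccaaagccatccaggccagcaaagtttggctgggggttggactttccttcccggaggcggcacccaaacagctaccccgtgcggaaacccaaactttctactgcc
Tgif1: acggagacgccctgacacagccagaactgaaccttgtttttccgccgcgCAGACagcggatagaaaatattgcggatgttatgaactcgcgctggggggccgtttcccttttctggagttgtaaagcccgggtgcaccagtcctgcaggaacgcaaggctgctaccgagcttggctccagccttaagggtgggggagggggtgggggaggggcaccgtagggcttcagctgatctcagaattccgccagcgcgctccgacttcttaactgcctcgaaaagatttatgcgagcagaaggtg
Smurf1: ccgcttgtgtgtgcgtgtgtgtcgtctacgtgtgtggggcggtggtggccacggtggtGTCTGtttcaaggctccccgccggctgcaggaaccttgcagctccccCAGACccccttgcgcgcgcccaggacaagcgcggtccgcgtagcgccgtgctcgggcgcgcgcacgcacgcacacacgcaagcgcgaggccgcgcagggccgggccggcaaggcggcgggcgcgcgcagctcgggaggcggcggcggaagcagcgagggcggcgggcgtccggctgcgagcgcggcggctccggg
None of the shown Inhbb, Tgfbr1 and Smad3 windows held the letters, the Tgif1 window held 1 match and the Smurf1 window held 2, 1 on each strand. The counts that follow use the first listed start of each gene. Of 34 members with a promoter in the table, 17 held CAGAC or GTCTG, or 50%, against 49.6% of 32851 promoters of the same length. Of the 8 called members among them, 5 held it at that start, and Tgfbr1 held it at its second listed start only. GGCGCC, a GC-rich sequence bound by BMP SMADs and its own reverse complement, was in 10 of the 34 members, or 29.4%, against 11.9% of all promoters. It was in 2 of the 8 called members, and the difference in share was not tested. AGGTCA or TGACCT, the core letters bound by nuclear receptors such as PPARγ, was in 4 of 34, or 11.8%, against 16.3% of all, and in 1 of the 8 called. These are matches of letters and not sites shown to be bound.

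Inhbb had the lowest p of all 45 members in ob/ob vs. WT. Activin B and inhibin B are built from its product. Its log2 normalized signal was 9.43, 9.49 and 10.20 on the WT arrays, 9.71, 10.27 and 10.64 in PPARγ2KO, 11.24, 11.43 and 11.68 in ob/ob, and 11.18, 11.34 and 11.11 in POKO. All 6 obese arrays lay above all 6 lean arrays. The log2 fold change in ob/ob vs. WT was 1.74 ± 0.26 (SE, 3 arrays a group), 3.34-fold, with limma's adjusted p = 0.0159, and the difference within slides was 1.81, 1.94 and 1.47. In obese vs. lean islets it was 1.37 ± 0.19 (adjusted p = 0.0134). Over 20 alternative settings, single arrays left out among them, the obese vs. lean call held with log2 fold changes of 1.198 to 1.497 and adjusted p of 0.00345 to 0.0435. The ob/ob vs. WT value was 1.43 to 1.99, and its adjusted p went up to 0.0622, without WT array 2. POKO vs. WT had a similar value, 1.505 ± 0.26, which did not pass the test (adjusted p = 0.0659).

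The other 2 members of that group were not called. Inhba, which encodes the βA subunit of activin A, lay at 11.35, 11.60 and 11.68 in WT, 11.44, 11.67 and 12.66 in PPARγ2KO, 12.26, 10.68 and 10.09 in ob/ob, and 11.43, 12.41 and 11.65 in POKO islets. Its ob/ob arrays ranged more widely than those of any other genotype, from above all 3 WT arrays to below them, and the difference from WT was -0.54 ± 0.53 (adjusted p = 0.520). Inha, the inhibin α subunit that turns a β subunit into an activin antagonist, was at 5.82, 6.35 and 6.79 in WT and 6.32, 7.61 and 7.94 in ob/ob islets. The difference, 0.97 ± 0.41, was positive on 3 of 3 slides and did not pass the test (adjusted p = 0.145). Inha lay at 6.45, 6.37 and 6.19 in POKO islets, below ob/ob arrays 2 and 3.

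Among 7 BMP and GDF ligands, Bmp7 and Bmp6 moved in opposite directions. Bmp7, a ligand of epithelial and kidney development, was at 9.61, 9.86 and 9.63 in WT, 9.92, 9.57 and 9.87 in PPARγ2KO, 8.82, 8.84 and 9.01 in ob/ob, and 9.22, 9.56 and 10.0004 in POKO islets. The 3 ob/ob arrays were the lowest of the 12. Bmp7 was 1.75-fold lower in ob/ob than in WT islets, a log2 fold change of -0.81 ± 0.19 (limma's adjusted p = 0.0331), and -0.78, -1.02 and -0.62 within slides. Bmp6, known for its control of iron through hepcidin, lay at 6.13, 5.96 and 6.29 in WT, 6.06, 5.80 and 6.49 in PPARγ2KO, 6.62, 6.61 and 7.41 in ob/ob, and 6.88, 6.80 and 6.76 in POKO islets. Every obese array was above every lean array, and the obese vs. lean difference was 0.73 ± 0.17 (adjusted p = 0.0335). With normexp background correction the obese vs. lean difference of Bmp6 was 0.19 (limma's adjusted p = 0.0480). That setting added an offset of 50 to the signal, which shrinks log2 differences of dim genes. Sizes under it, here and below, cannot be set beside those of the fit reported. In ob/ob vs. WT alone the Bmp6 difference of 0.75 ± 0.23 did not pass (limma's adjusted p = 0.0661).

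The Bmp7 difference in obese vs. lean islets was -0.50 ± 0.13 (limma's adjusted p = 0.0470), and with the slide as a block its adjusted p was 0.0541. Bmp2, Bmp4, Gdf11 and Gdf15 were not called in any comparison. Gdf15, a stress-responsive ligand that acts on the brainstem, stood at group means of 11.66 to 11.84 in the 4 genotypes. Bmp5 was well above background on no array, and Gdf11 on 1 ob/ob and 1 POKO array only.

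The TGF-β ligands themselves and the latent TGF-β binding proteins that hold them in the matrix gave no call in any comparison. Tgfb1 was at 8.76, 9.03 and 8.92 in WT, 9.57, 9.33 and 9.30 in PPARγ2KO, 9.23, 8.18 and 8.62 in ob/ob, and 8.65, 9.37 and 8.62 in POKO islets. The PPARγ2KO arrays were above the WT arrays, by 0.50 ± 0.27 (limma's adjusted p = 0.607), and the 2 obese groups spanned the WT range. The log2 fold changes of Tgfb1, Tgfb2, Tgfb3, Ltbp1 and Ltbp2 in ob/ob vs. WT were all negative, between -0.66 and -0.22, with a lowest adjusted p of 0.1999.

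**Figure D2:**
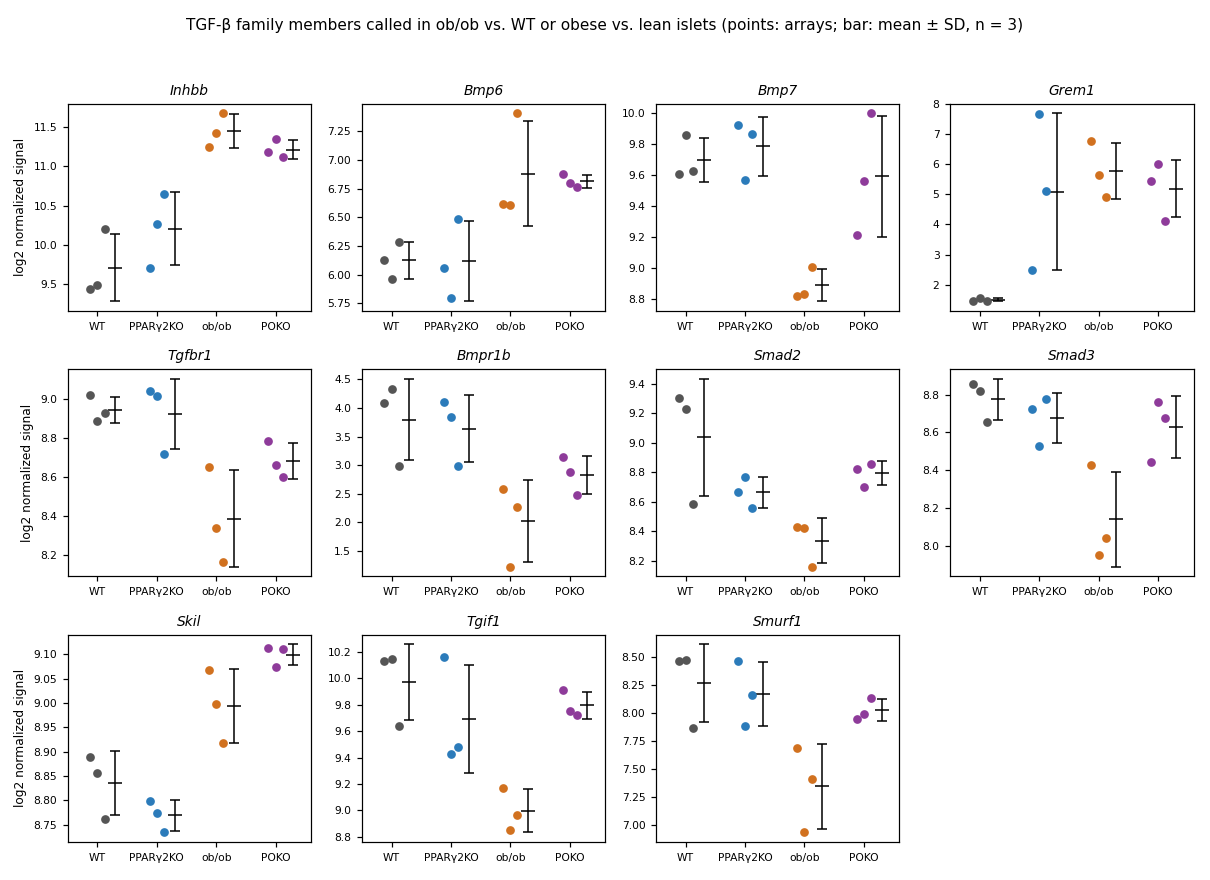
Log2 normalized signal (y axis, its range set per gene) of the 11 members called in ob/ob vs. WT or obese vs. lean islets, by genotype on the x axis. Points are arrays in the order of replicate number and bars are mean ± SD (n = 3); for Inhbb, Bmp6 and Skil every obese array is above every lean array, and for Bmp7, Smad3, Smad2, Tgif1 and Smurf1 the 3 ob/ob arrays are the lowest.

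Of 4 secreted antagonists, Grem1 alone was called. Gremlin binds and blocks BMPs. Its log2 signal was 1.46, 1.56 and 1.48 on the WT arrays, none of them well above background, and 6.77, 5.65 and 4.90 in ob/ob and 5.44, 5.99 and 4.13 in POKO islets, all above it. PPARγ2KO islets gave 2.48, 7.68 and 5.12, of which arrays 2 and 3 were above background. Because WT has only a bound, the ob/ob level was at least 3.90-fold higher (fitted difference 4.28 ± 1.11, limma's adjusted p = 0.0416), and the POKO level at least 2.60-fold higher (adjusted p = 0.153). With single arrays left out the Grem1 call held in 2 fits and was lost in 10. Limma's adjusted p went up to 0.118, without WT array 2. With normexp background correction, whose offset shrinks differences of dim genes, it was 0.297 with a log2 fold change of 0.39.

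Lymphocyte lists were also higher in obese islets. The mean log2 signal of 6 T cell genes was 3.50 to 4.20 in WT, 6.72 to 8.23 in ob/ob and 6.00 to 7.67 in POKO islets, and 4.34, 7.46 and 3.81 on the 3 PPARγ2KO arrays. That of 4 B cell genes was 3.71 to 4.04, 6.95 to 8.07 and 6.71 to 8.04, and 3.18, 8.09 and 4.35 in PPARγ2KO. In ob/ob vs. WT 5 of the 6 T cell genes and 3 of the 4 B cell genes were called higher, while the remaining T cell gene, Cd3e, had a negative difference of -1.48 (unadjusted p = 0.0304, adjusted p = 0.118 by limma). PPARγ2KO array 2, the highest of the 12 for Grem1, was the only lean array with lymphocyte lists near the obese levels. On PPARγ2KO array 3 Grem1 was at 5.12, above ob/ob array 3, while both lists were near the WT level. The mean of 9 fibroblast and stellate markers was 9.72, 10.80 and 10.49 in PPARγ2KO, in the order of Grem1, and was highest on the array with most Grem1 in ob/ob and in POKO islets, but at 9.48 and 9.52 on ob/ob arrays 2 and 3 it was below all WT arrays. The part of these cells in the Grem1 result was not tested. In whole islets, fewer or more cells of a type cannot be told apart from less or more RNA per cell.

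The other antagonists gave values with no call. Fst, follistatin, which sequesters activin, was at 6.16, 5.89 and 5.33 in WT, 5.08, 6.26 and 6.66 in PPARγ2KO, 5.97, 4.37 and 4.06 in ob/ob, and 5.64, 6.35 and 5.65 in POKO islets. Fst on ob/ob arrays 2 and 3 alone was outside the range of the other genotypes, and the difference from WT was -0.997 ± 0.55 (limma's adjusted p = 0.251). Fstl3, a follistatin relative, differed by -0.58 ± 0.29 (adjusted p = 0.210). Nog, the BMP antagonist noggin, was at 5.53, 5.55 and 5.48 in WT, 4.32, 3.28 and 5.499 in PPARγ2KO, 4.61, 4.27 and 4.53 in ob/ob, and 4.65, 5.20 and 5.54 in POKO islets. WT and ob/ob did not overlap, with a difference of -1.05 ± 0.46 (adjusted p = 0.158).

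Of 10 receptors, 2 type I receptors were lower in ob/ob islets. Tgfbr1, the type I TGF-β receptor, was at 9.02, 8.89 and 8.93 in WT, 9.04, 9.02 and 8.72 in PPARγ2KO, 8.65, 8.34 and 8.17 in ob/ob, and 8.79, 8.66 and 8.60 in POKO islets. Obese arrays lay below the lean ones, except that POKO array 1 passed PPARγ2KO array 3. Its log2 fold change in ob/ob vs. WT was -0.56 ± 0.14 (limma's adjusted p = 0.0370), with -0.36, -0.54 and -0.76 within slides, and that in obese vs. lean was -0.40 ± 0.10 (adjusted p = 0.0369).

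Bmpr1b, a type I BMP receptor, was near background throughout, above it on 1 WT and 1 PPARγ2KO array and on no obese array. Its log2 signal was 4.08, 4.33 and 2.98 in WT, 4.11, 3.83 and 2.98 in PPARγ2KO, 2.58, 1.22 and 2.27 in ob/ob, and 3.14, 2.88 and 2.48 in POKO islets. The fitted difference in ob/ob vs. WT was -1.77 ± 0.46 (limma's adjusted p = 0.0424), and with 1 of 3 WT arrays above background its size is uncertain. With normexp correction, whose offset shrinks differences of dim genes, the log2 fold change was -0.085 (limma's adjusted p = 0.0735).

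The type II receptors Acvr2a and Bmpr2 had differences of -0.71 ± 0.23 and -0.42 ± 0.15 in ob/ob vs. WT, which did not pass (limma's adjusted p = 0.0721 and 0.0921). Tgfbr2, the type II TGF-β receptor, lay at 9.81, 9.92 and 9.502 in WT, 9.49, 10.33 and 9.70 in PPARγ2KO, 10.32, 9.82 and 10.26 in ob/ob, and 10.45, 10.22 and 10.16 in POKO islets, and ob/ob and WT overlapped. The log2 fold changes of Acvr1, Bmpr1a and Acvr2b in ob/ob vs. WT were 0.10, 0.11 and -0.30, with adjusted p between 0.189 and 0.737. Tgfbr3 and Acvr1b were well above background on no lean array.

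Of 8 SMADs, the 2 that TGF-β and activin receptors phosphorylate were lower in ob/ob islets, and the 3 that BMP receptors phosphorylate were not called. Smad3 was at 8.86, 8.82 and 8.65 in WT, 8.72, 8.53 and 8.78 in PPARγ2KO, 8.43, 7.95 and 8.04 in ob/ob, and 8.45, 8.76 and 8.68 in POKO islets. All 3 ob/ob arrays lay below the other 9. The log2 fold change in ob/ob vs. WT was -0.64 ± 0.14 (limma's adjusted p = 0.0311), and the within-slide differences were -0.43, -0.86 and -0.61. Smad2 was at 9.30, 9.23 and 8.58 in WT, 8.67, 8.76 and 8.55 in PPARγ2KO, 8.43, 8.42 and 8.16 in ob/ob, and 8.82, 8.70 and 8.86 in POKO islets. Here too the ob/ob arrays were the lowest, with a difference from WT of -0.70 ± 0.18 (adjusted p = 0.0392), and WT array 3 was close to the PPARγ2KO level.

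Smad1, the shared partner Smad4, and Smad5 had log2 fold changes of 0.09, 0.03 and 0.12 in ob/ob vs. WT, none of them called, and further probes of Smad4 and Smad5 gave negative values. Smad4 was at 11.13, 10.89 and 10.86 in WT, 10.74, 10.52 and 10.84 in PPARγ2KO, 10.87, 11.13 and 10.97 in ob/ob, and 11.02, 10.91 and 10.93 in POKO islets. Smad7, the inhibitory SMAD of the TGF-β branch, was at 6.89 to 7.31 in WT and 6.88 to 7.27 in ob/ob islets. Smad6, the inhibitory SMAD of the BMP branch, lay at 8.06, 8.01 and 8.66 in WT and 8.68, 8.94 and 9.07 in ob/ob islets. These did not overlap, and the difference of 0.65 ± 0.20 did not pass the test (limma's adjusted p = 0.0656). Smad9 was well above background on 1 POKO array only.

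Among nuclear co-repressors, Tgif1 had a lower and Skil a higher level. Tgif1, a homeodomain protein that represses SMAD2 and SMAD3 complexes, was at 10.13, 10.14 and 9.64 in WT, 10.17, 9.43 and 9.48 in PPARγ2KO, 9.17, 8.85 and 8.97 in ob/ob, and 9.91, 9.76 and 9.72 in POKO islets. The ob/ob arrays were the lowest of the 12. Its level was 1.97-fold lower in ob/ob than in WT islets (-0.98 ± 0.21, limma's adjusted p = 0.0293), and -0.96, -1.30 and -0.67 within slides. Skil, also called SnoN, was at 8.89, 8.86 and 8.76 in WT, 8.80, 8.77 and 8.73 in PPARγ2KO, 9.07, 8.998 and 8.92 in ob/ob, and 9.11, 9.07 and 9.11 in POKO islets. The shift was small and every obese array was above every lean one, at 0.24 ± 0.05 in obese vs. lean (adjusted p = 0.0258). Ski, its relative, differed by -0.28 ± 0.12 in ob/ob vs. WT (adjusted p = 0.155).

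Smurf1, which marks SMADs and receptors for degradation, was at 8.47, 8.47 and 7.87 in WT, 8.47, 7.89 and 8.16 in PPARγ2KO, 7.69, 6.94 and 7.42 in ob/ob, and 7.95, 7.99 and 8.14 in POKO islets. The ob/ob arrays lay below all others, 1.89-fold below WT (-0.92 ± 0.23, limma's adjusted p = 0.0391). Smurf2 had a difference of -0.28 ± 0.13 (adjusted p = 0.179). Id1, Id2 and Id3, direct BMP targets that block bHLH factors, had log2 fold changes of -0.66, -0.07 and 0.24 in ob/ob vs. WT, with adjusted p of 0.153, 0.847 and 0.520.

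Over the alternative settings, limma's adjusted p in ob/ob vs. WT was 0.0190 to 0.113 for Bmp7, 0.00871 to 0.113 for Tgfbr1, 0.00630 to 0.106 for Smad3 and 0.00538 to 0.1504 for Smad2. For Tgif1 they were 0.00504 to 0.105 and for Smurf1 0.00578 to 0.131. For Skil in obese vs. lean the range was 0.00851 to 0.630, and for Bmp6 it was 0.0113 to 0.0813. The sign of these 8 differences was the same in every alternative, while their sizes varied. In ob/ob vs. WT the log2 difference was -0.88 to -0.60 for Bmp7, -0.88 to -0.40 for Tgfbr1 and -0.99 to -0.34 for Smad3. It was -0.93 to -0.46 for Smad2, -1.14 to -0.77 for Tgif1 and -1.24 to -0.54 for Smurf1. In obese vs. lean it was 0.077 to 0.26 for Skil and 0.19 to 1.03 for Bmp6. Except for Skil, the smallest sizes came with normexp, whose offset shrinks differences of dim genes.

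For POKO vs. ob/ob, the effect of PPARγ2 loss on the obese background, no member and none of the 17305 named genes passed the test. Over all probes 2 passed, or 0.00486%. Pparg, the targeted gene, was not called either, at -2.42 (limma's adjusted p = 0.230), so a gene without a call may still have changed. Of the 45 members 28 had a positive POKO minus ob/ob difference, with a median of 0.16, against 0.010 over all probes. Within slides 1, 2 and 3 the median over the members was -0.074, 0.30 and 0.21. The members' median was 0.084 without ob/ob array 3, 0.107 without ob/ob array 2, 0.099 without POKO array 2 and 0.27 without ob/ob array 1. It was 0.054 with normexp background correction, whose offset shrinks differences of dim genes. Of 16 genes that TGF-β is known to induce or repress, 13 had a positive difference, with a median of 0.24 and none called. The POKO means of Smad2 and Smad3 lay nearer to the WT than to the ob/ob means. The same ob/ob arrays enter this and the ob/ob vs. WT comparison. Tgif1 had a POKO minus ob/ob difference of 0.80 ± 0.21, Bmp7 of 0.70 ± 0.19, Smad3 of 0.49 ± 0.14, Smurf1 of 0.68 ± 0.23 and Smad2 of 0.46 ± 0.18, each with limma's adjusted p = 0.531. With array weights, Tgif1 and Smad3 passed (adjusted p = 0.0470), and over the alternatives the adjusted p of both went up to 0.885. For each of these 5 the POKO arrays lay above all ob/ob arrays, as for 12 of the 45 members and for 21.6% of named genes in either direction. Within slides the POKO array was above the ob/ob array on 3 of 3 slides for 13 of the 45 members, among them these 5 and Tgfbr1, and below it on 3 of 3 slides for 4 (Inhbb, Tgfbr3, Bmpr1a and Smad6). Those shares were 28.9% and 8.89% of members against 20.7% and 16.2% of named genes. Of the 7 members with an unadjusted limma p below 0.05, 6 were higher, these 5 and Gdf11, which was near background. The other was Inha, lower at -0.95. Its second probe gave -0.53 (limma's unadjusted p = 0.0337, adjusted p = 0.531), with POKO below all ob/ob arrays. Cell type markers also differed in sign as groups, none of them called. All 7 β-cell markers had negative differences (median -0.73), all 9 fibroblast and stellate markers had positive ones (median 0.72), and 5 of 6 duct markers had positive ones (median 0.45). All 5 measured macrophage markers had positive differences (median 0.83), and all 7 endothelial markers had negative ones (median -0.33). Negative differences were also found for 2 of 2 δ-cell markers (median -0.68), 5 of 6 T cell markers (-0.46) and 4 of 4 B cell markers (-0.26). Their part in the values of the members and of the 16 target genes was not tested.

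Of the genes the study names in this comparison, Tgfb1 had a POKO minus ob/ob difference of 0.20 ± 0.27 (95% interval -0.41 to 0.82) and changed sign among slides, with -0.58, 1.19 and -0.00386. Without ob/ob array 2 it was -0.05, and without POKO array 2 it was -0.04. Tgfbr1 differed by 0.29 ± 0.14 (-0.01 to 0.60), Tgfbr2 by 0.14 ± 0.23 (-0.37 to 0.65) and Smad4 by -0.04 ± 0.11 (-0.29 to 0.22). Limma's adjusted p for these was 0.538 or above. Tgfbr2 and Smad4 also changed sign without ob/ob array 2, to -0.02 and 0.03, and Smad4 did so under 75th percentile scaling, at 0.03, and with all its probes averaged. The second, dimmer Tgfbr2 probe gave 0.98 (-0.01 to 1.96, adjusted p = 0.536), with POKO above all ob/ob arrays, and the mean of both probes gave 0.56. With single arrays left out, Tgfbr1 ran from 0.18 without ob/ob array 3 to 0.43 without ob/ob array 1. Inhbb had a POKO minus ob/ob difference of -0.24 (-0.83 to 0.36).

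**Figure D3:**
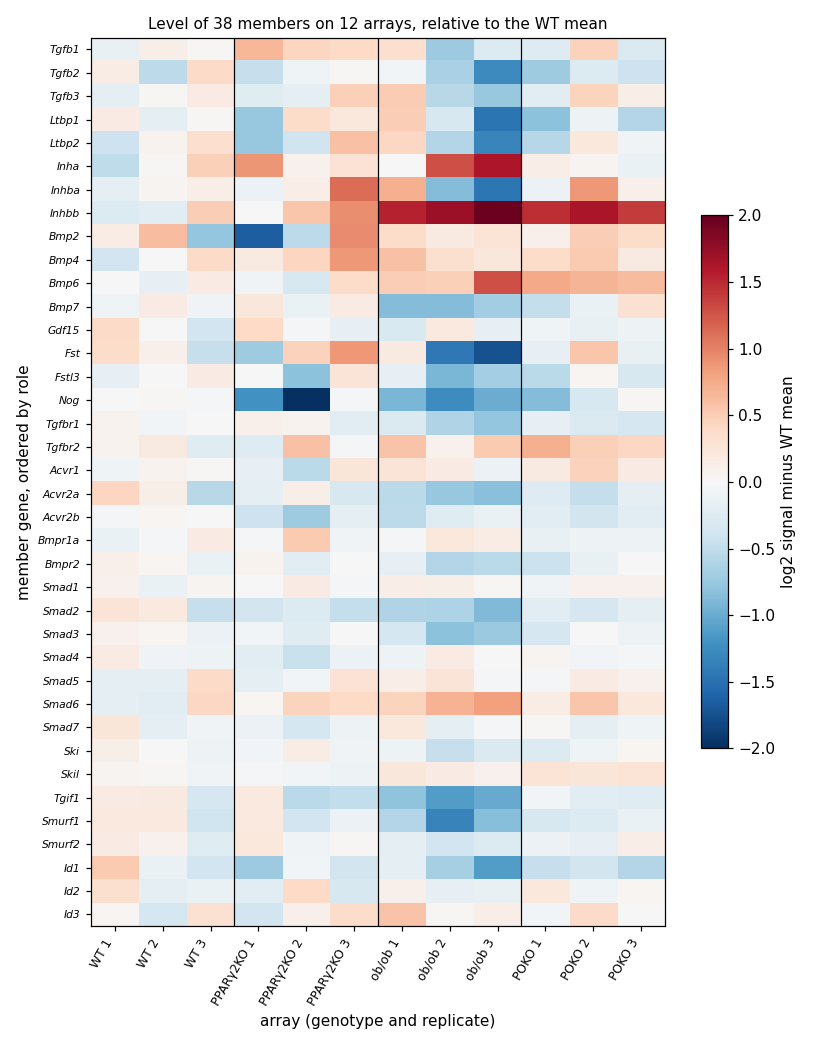
Log2 signal minus the WT mean (colour, cut at 2 either way) of 38 members on the 12 arrays, with genes in rows by role and arrays in columns by genotype and replicate; the 7 members with no array well above background in some genotype are left out. Inhbb and Bmp6 are red on all 6 obese arrays, Smad2, Smad3, Tgif1 and Smurf1 are blue on the 3 ob/ob arrays and mostly paler in POKO, and Tgfb3, Ltbp1, Ltbp2, Inhba and Fst are blue on ob/ob arrays 2 and 3 and not on ob/ob array 1.

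Loss of PPARγ2 in lean mice gave no call among the members or any named gene. Pparg, the targeted gene, was itself not called, at -1.79 (limma's adjusted p = 0.257). A gene without a call here may therefore still have changed. The 3 members of lowest p in PPARγ2KO vs. WT were Grem1, Acvr2b and Nog. Acvr2b, a type II activin receptor, was at 7.43, 7.49 and 7.45 in WT and 7.04, 6.75 and 7.28 in PPARγ2KO islets, a difference of -0.43 ± 0.14 (limma's adjusted p = 0.482). Nog differed by -1.16 ± 0.46 (adjusted p = 0.505), with PPARγ2KO array 3 at the WT level. The Nog difference was -0.61 without PPARγ2KO array 2 and -1.72 without PPARγ2KO array 3. It was -0.097 with normexp background correction, whose offset shrinks differences of dim genes. Grem1, at 2.48, 7.68 and 5.12 in PPARγ2KO islets with array 1 not well above background, had only a bound in WT (adjusted p = 0.471), and no fold is given because it would rest on array 2.

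The interaction asked whether PPARγ2 loss acts differently in obese and lean islets, as the POKO minus ob/ob less the PPARγ2KO minus WT difference. Its 3 members of lowest p were Tgif1 at 1.08 ± 0.30, Smad2 at 0.83 ± 0.25 and Smad3 at 0.59 ± 0.20, and none passed (limma's adjusted p = 0.266, 0.274 and 0.288). Smad2 reached 1.06 with an adjusted p of 0.0323 without WT array 3, and its range over alternatives went up to 0.520. The median of the members was 0.23, or 0.14 without ob/ob array 3, and that of all probes was 0.04.

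Several members for secreted and matrix-bound proteins ranged further among the 3 ob/ob arrays than the genotype means differed. Ltbp2 was at 10.24, 9.24 and 8.4995 on the 3 ob/ob arrays, against 9.41, 9.90 and 10.16 in WT. Tgfb3 was at 10.58, 9.53 and 9.32, against 9.89, 10.102 and 10.23 in WT. For these and for Inhba, ob/ob array 1 was above the WT range and arrays 2 and 3 were below it, while for Fst array 1 was inside that range. The mean log2 signal of 9 fibroblast and stellate markers was likewise highest in ob/ob on array 1, with 11.06, 9.48 and 9.52 in ob/ob, 9.81, 9.89 and 10.18 in WT, 9.72, 10.80 and 10.49 in PPARγ2KO and 10.34, 11.14 and 10.38 in POKO islets. Of these 9 markers 1 was called in ob/ob vs. WT, Thy1, as higher, while 6 had negative differences, 1 of them with an unadjusted p below 0.05 (Acta2, -0.53), and the median was -0.11. Their part in the spread of these members was not tested. The 7 endothelial markers had a median log2 fold change of 1.17 in ob/ob vs. WT with 2 called higher, and of 6 duct markers 3 were called lower, while 2 had positive differences with an unadjusted p below 0.05 (Krt7 0.54 and Spp1 0.72). Their part in the calls above was not tested either.

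**Figure D4:**
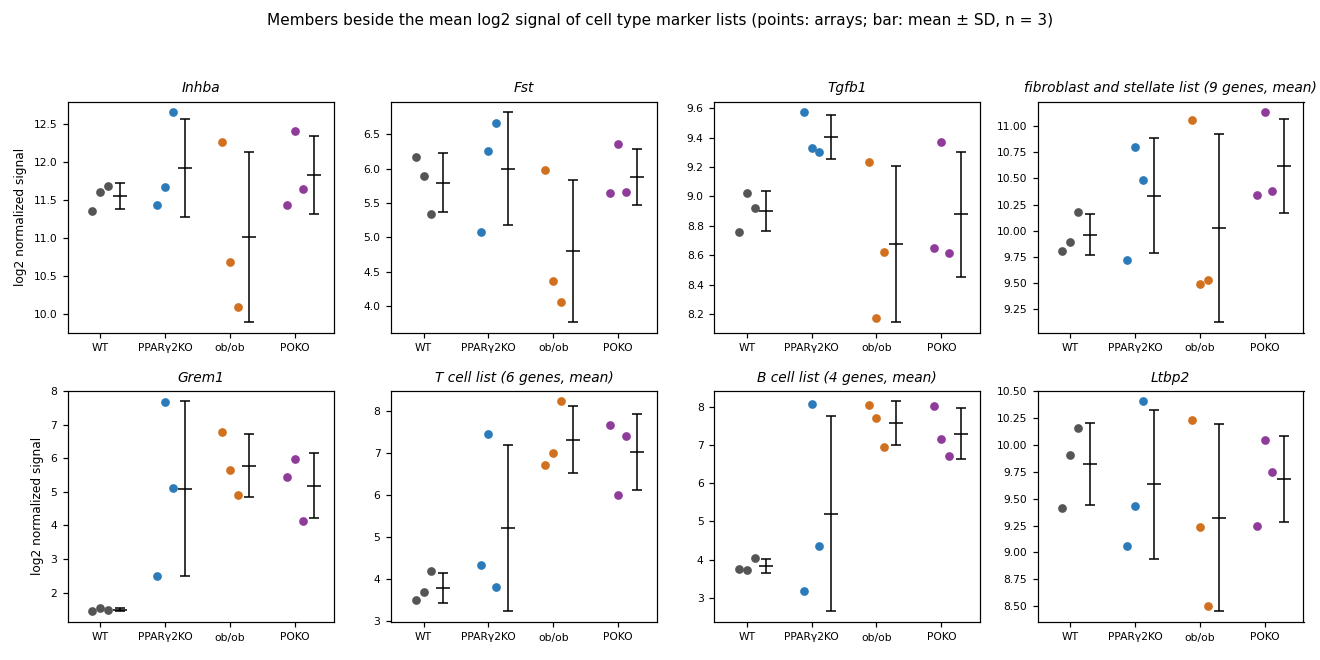
Log2 signal of Inhba, Fst, Tgfb1, Ltbp2 and Grem1 beside the mean log2 signal of 9 fibroblast and stellate, 6 T cell and 4 B cell markers, by genotype on the x axis (points are arrays in replicate order, bars mean ± SD, n = 3). Inhba, Fst and Ltbp2 are higher on ob/ob array 1 than on arrays 2 and 3, as is the fibroblast and stellate list, and Grem1 is high on PPARγ2KO arrays 2 and 3, while both lymphocyte lists are high on array 2 only.

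For 19 members the array holds a further probe. Those of Bmp7, Smad3 and Tgfbr1 were also called lower in ob/ob vs. WT, by -0.92 for Bmp7, -1.35 for Smad3 and at least 2.06-fold for Tgfbr1 (limma's adjusted p = 0.0299, 0.0311 and 0.0373). The second Inhbb probe gave 1.12 in ob/ob vs. WT (adjusted p = 0.101) and 1.25 in obese vs. lean (adjusted p = 0.0351). The second Smurf1 probe gave -0.46 (adjusted p = 0.0545). For Skil the second probe gave -0.09 in obese vs. lean and -0.42 in ob/ob vs. WT, where the brightest gave 0.16. Probes thus disagreed in sign for Skil, and for Tgfbr2, at -0.98 against 0.39 in ob/ob vs. WT. They also did for Smad5, whose further probes gave -1.16 (adjusted p = 0.107, WT and ob/ob arrays not overlapping) and -0.08 against 0.12, and for Smad4, at -0.16 against 0.03. A dimmer Bmpr1a probe was called lower at -0.65 (adjusted p = 0.0194), while the brightest gave 0.11.

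A further list of 65 genes of these pathways, 61 of them measured, had 4 calls in ob/ob vs. WT, or 6.56% against 13.6% of named genes. Bambi, a decoy receptor without a kinase domain, was higher in ob/ob islets by 1.11 ± 0.28 (limma's adjusted p = 0.0379). Wwp1, a ubiquitin ligase of the SMURF family, was lower, at -0.74 ± 0.15 (adjusted p = 0.0271), and so were Trim33, which binds SMAD complexes, at -0.41 ± 0.09 (adjusted p = 0.0280) and the ligand gene Nodal, at -0.48 ± 0.12 (adjusted p = 0.0381). In obese vs. lean islets 3 were called, or 4.92% against 11% of named genes: Wwp1, Nodal and Itgb6, a subunit of an integrin that frees latent TGF-β, were lower, at -0.45, -0.32 and -0.998 (adjusted p = 0.0363, 0.0458 and 0.0339). The 4 calls in ob/ob vs. WT went to 0 without WT array 1 or 2 or ob/ob array 2 or 3, to 2 without POKO array 1 or 2, to 8 without ob/ob array 1 and to 10 without WT array 3. The 3 in obese vs. lean went to 0 without WT array 2, PPARγ2KO array 2, ob/ob array 2 or 3 or any 1 POKO array, to 1 without WT array 1 or PPARγ2KO array 1, and to 5 without WT array 3.

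A list of 16 genes that TGF-β is known to induce or repress gave no call in ob/ob vs. WT by limma, with an unadjusted p below 0.05 for 5, or 31.2% against 37% of named genes. In obese vs. lean 1 was called, or 6.25% against 11% of named genes, which was Junb at 0.31 ± 0.08 (adjusted p = 0.0437). The obese vs. lean count was 1 to 3 without ob/ob array 1, PPARγ2KO array 3 or WT array 3 and 0 without any 1 of the other 9 arrays. Ccn2, connective tissue growth factor, differed by -0.72 ± 0.27 in ob/ob vs. WT (adjusted p = 0.108), and Tagln, a smooth muscle gene, by 0.79 ± 0.22 (adjusted p = 0.0535).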

How the data were processed

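Islet RNA of 12 samples was hybridised to 12 one-colour arrays, and groups were taken from the sample titles. The authors extracted spot intensity values with Agilent Feature Extraction 10.1.1.1, whose deposited processed signal is background-subtracted intensity, with flags for outliers and for spots well above background. The authors also deposited log2 values after quantile normalization, used here as an alternative; their scale and direction followed the values computed here (correlations of 0.9997 on all 12 arrays), and no centring was seen.

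Here, 1639 control spots of the 45018 spots on each array and 919 outlier spots over the 12 arrays together were left out, processed signals were quantile-normalized and taken to log2, and spots of a probe averaged, leaving 41174 probes. No spot was saturated. Accessions named 25097 probes and 17305 genes through RefSeq tables. One linear model with genotype as the factor was fitted to all 12 arrays in limma 3.58.1 (R 4.3.3) with moderated statistics and Benjamini-Hochberg adjustment over all probes, and an adjusted p of at most 0.05 is called. The study's block on the array could not be fitted, as each array holds 1 sample. "At least" folds use the lowest signal well above background on the arrays of the dim group. The number of arrays limits the precision. The steps were tested on simulated data.

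Replicates are pools, and p-values measure the spread between pools. The replicate number is also the slide in the file headers; same-numbered arrays deviated together weakly (correlations of -0.13 to 0.18), and the fit with the slide as a block is given as an alternative. The members and lists were chosen with earlier results of these data known. Members called in any comparison, those the study names for POKO vs. ob/ob and the 3 of lowest p in 4 comparisons are described in full. Inha, Inhba, Fst, Fstl3, Acvr2a, Bmpr2 and Smad6 were added after their values were seen. So were Smurf1 and Gdf11 in POKO vs. ob/ob, Ltbp2, Tgfb3, Ccn2, Tagln and the second probes. The normexp alternative used median in place of mean signal, as the deposited intensity columns hold no mean. It added an offset of 50, which shrinks log2 differences of dim genes. The genes not measured were Zfyve9, Tgfb1i1, Lrrc32, Itgb8, Iapp and Cd68. Dcn, Acta2 and 3 collagen genes stand both in the fibroblast and stellate list and in another. Alternatives were 75th percentile scaling, normexp background correction, the authors' values, a filter on dim probes, outlier spots kept, fits of only the groups compared, the replicate block, array weights, a fold criterion of 1 on the log2 scale, a gene's probes averaged, and each array left out.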

Additional observations from a re-analysis of the deposited data

How the results depend on the processing

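The counts of calls depended on the arrays and on the setting, and the cause was not tested. Members called in ob/ob vs. WT, 9 in the fit reported, numbered 16 with array weights, 5 with normexp, 3 in fits of only the groups compared and 3 with a fold criterion. In obese vs. lean, 6 in the fit reported, they numbered 14 with weights, 3 with normexp and 2 with the fold criterion. Which members these were is not counted here. Against 0 calls, POKO vs. WT had 4 with weights and 1 under 75th percentile scaling or the filter on dim probes, POKO vs. ob/ob had 3 with weights, and ob/ob vs. PPARγ2KO had 6 with weights and 1 under the filter. The members' median in ob/ob vs. WT was -0.27 with weights, -0.26 under the filter and -0.27 with probes averaged, and in PPARγ2KO vs. WT it was -0.090 with probes averaged.

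Other pathway genes called in ob/ob vs. WT numbered 14 with weights, 8 under the filter, 2 under 75th percentile scaling, 1 with the fold criterion and 0 when only the groups compared were fitted, and in obese vs. lean 10 with weights, 5 under the filter, 0 with the fold criterion and 1 with the replicate block. They numbered 2 in POKO vs. WT with weights and 1 with only those groups, 4 in POKO vs. ob/ob with weights and 1 in ob/ob vs. PPARγ2KO with weights. Target genes called in ob/ob vs. WT numbered 4 with weights, 1 under the filter and 1 with probes averaged; in obese vs. lean they numbered 2 with weights and 0 under 75th percentile scaling, the authors' values or the fold criterion, and in POKO vs. WT 1 with weights.

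With single arrays left out, members called ran from 0 to 11 in ob/ob vs. WT, 1 to 12 in obese vs. lean, 0 to 3 in ob/ob vs. PPARγ2KO and 0 to 1 in POKO vs. WT, PPARγ2KO vs. WT and the interaction. Other pathway genes ran from 0 to 10, 0 to 5, 0 to 4 and, in the interaction, 0 to 1. Target genes ran from 0 to 3 in ob/ob vs. WT and in obese vs. lean, and 0 to 1 in ob/ob vs. PPARγ2KO and the interaction. The members' median ran from -0.22 to -0.027 in ob/ob vs. WT and -0.11 to 0.054 in POKO vs. PPARγ2KO. In POKO vs. ob/ob, Smad4 ran from -0.095 to 0.034, Tgfb1 from -0.048 to 0.48 and Tgfbr2 from -0.017 to 0.23, and with probes averaged Tgfbr2 was 0.56 and Smad4 0.0071. Smad4 was 0.032 under 75th percentile scaling.

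The replicate block, which is the slide, gave 11 members called in ob/ob vs. WT and 5 in obese vs. lean, where Bmp7 had an adjusted p of 0.0541. Signal near background limited Grem1 to a bound and left the size of the Bmpr1b difference uncertain.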
